A study of Mus musculus with 7 samples.

Results

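Solute carriers are membrane proteins that move nutrients, ions and metabolites across the plasma membrane and the membranes of organelles, without using ATP hydrolysis directly. The genes described here are those measured by probe sets whose annotation gives exactly 1 gene symbol made of Slc, a family number, a letter and a member number. Slc25a37, Slc40a1 and Slc2a3 were left out by the rule. That gave 133 genes measured by 201 probe sets, of 8378 genes in all. They comprise 29 of the Slc25 family of mitochondrial carriers and 104 of other families, and 89 of them rest on 1 probe set. For reference, 373 protein-coding genes of RefSeq (assembly GRCm38.p6) carry such a symbol, and 136 were measured before the 3 genes were set aside. Every probe set in the deposited table had passed a filter on detection in 100% of the samples, so a gene that failed detection on any array is not analysed here.

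RNA came from marrow of transplanted mice and was measured on 7 Affymetrix Mouse430_2 arrays. The 3 mock arrays hold unsorted marrow of recipients of control cells with a mock transgene, and the 2 ABCG2 arrays hold unsorted marrow of recipients of cells with an ABCG2 transgene, ABCG2 being a drug efflux pump. A further 2 arrays hold the GFP-positive and the GFP-negative cells, sorted on green fluorescent protein, of marrow transplanted with cells that express EZH2-Mt, from a recipient described as MDS-like (MDS read as myelodysplastic syndrome, in which the marrow makes blood cells poorly). EZH2 is a histone methyltransferase of the Polycomb group. All groups thus share the transplant. Strain, age, the form of the EZH2-Mt allele and the share of unsorted cells that carried a transgene are not given in the sources used here. The labels speak of recipient mice without numbering them, so each p-value covers only the array-to-array spread, which may be technical.

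Most plasma membrane carriers are secondary transporters that couple the uptake of a solute to a sodium or proton gradient, or exchange a solute against another. The Slc25 family spans the inner mitochondrial membrane and links the matrix with the cytosol by exchanging ADP for ATP, phosphate, carboxylates, amino acids and cofactors. In bone marrow, proliferating precursors are known for high amino acid, nucleoside and iron uptake, while phagocytes carry transporters on their phagosomes and lysosomes.

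The deposited signals are logarithms, taken here as log2 because the base was not stated, and each probe set was centred on its median over the 7 arrays. A value of 0 is thus the median array, values say nothing about absolute level, and levels of different genes cannot be ranked. The SD over 8378 genes was 0.30 to 0.39 on the mock arrays, 0.38 and 0.44 on the EZH2-Mt arrays, and 1.12 and 1.21 on the ABCG2 arrays, which stood apart from the rest. Over the 133 carrier genes the SD was 0.27 to 0.41, 0.39 and 0.46, and 1.08 and 1.07. Titles of the ABCG2 pair include an unexplained tag found on no other array, and what it marks cannot be told apart from the transgene. Of the marker genes listed for marrow cells, 14 of 19 for neutrophils and 11 of 14 for monocytes and macrophages were measured. For the B lineage it was 10 of 19 and for erythroid cells 8 of 19, which covers the main lineages of the labelled tissue. The others had no probe set that both passed the filter and carried exactly 1 gene symbol.

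Between ABCG2 and mock marrow, carrier genes moved in both directions. Of the 133 genes, 38 were higher and 35 lower in ABCG2 marrow, and 60 did not pass (limma, adjusted p below 0.05 over 8378 genes). Among all genes, 35.6% were called higher and 26.2% lower, against 28.6% and 26.3% of the carrier genes, so neither share says something about carriers in particular. The median difference was 0.16 over the carriers and 0.15 over all genes, and the median size of the difference was 0.61 and 0.65. The 60 genes that did not pass ranged from -0.61 ± 0.43 in Slc16a4 to 0.77 ± 0.32 in Slc35d1, with limma adjusted p = 0.25 and 0.0756. Both ABCG2 arrays lay above all mock arrays for 54 carrier genes and below them for 42, where the shares over all genes were 44.2% and 32.7%. They lay above all 5 other arrays for 39 genes and below them for 37, beside 34.9% and 27.7% of all genes. Quantile normalization, which gives the arrays the same distribution of values, was applied to the centred values. Their spread on an array is its distance from the median array. The scaling thus narrows ABCG2 values and widens mock values by construction, and a lost call does not by itself show a weak difference. Under quantile normalization the calls were 15 higher and 24 lower. Among all genes they were 12.4% and 16.5%, so the split between directions depends on the scaling. That scaling alone ended 18 calls, those of Slc7a1, Slc7a6os, Slc16a6, Slc19a1, Slc23a2, Slc25a2, Slc25a11, Slc25a15, Slc25a29, Slc35a4, Slc35e1, Slc35e2, Slc38a1, Slc39a8, Slc39a10, Slc39a14, Slc48a1 and Slc66a1.

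**Figure D1:**
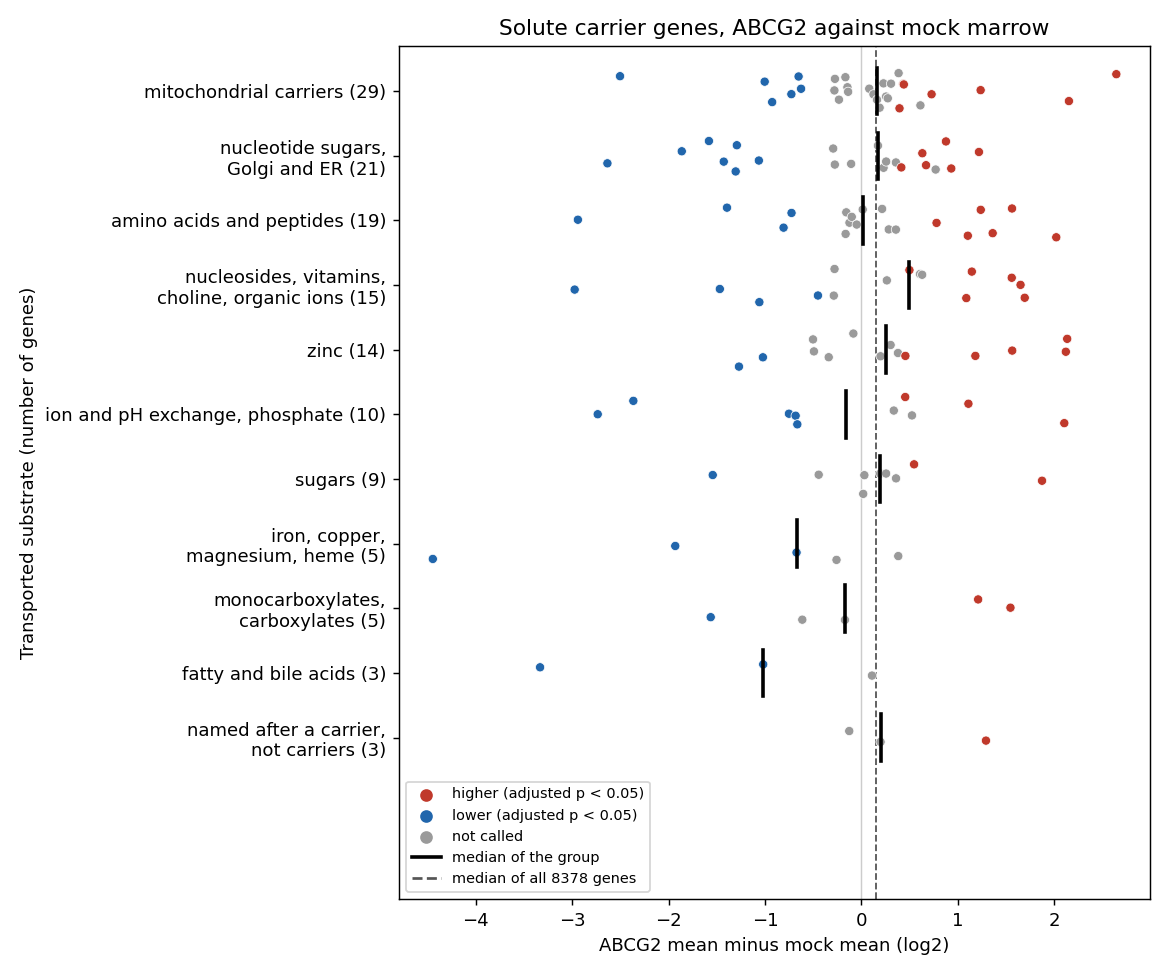
Difference between the ABCG2 mean (2 arrays) and the mock mean (3 arrays) in log2 for each of the 133 genes, 1 point a gene, grouped by the substrate that the carriers move, with the number of genes in brackets. Red and blue points passed the test, black bars are group medians, and the dashed line is the median of all 8378 genes, 0.15; points of both colours stand in 8 of the 9 groups with 5 or more genes.

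The largest falls took in carriers of phagosomes, mitochondria and the Golgi. Slc11a1 encodes the divalent metal transporter of the phagosome membrane of macrophages and neutrophils. Its signal (mock replicates 1 to 3 in order, then ABCG2) was 0.75, 0.81 and 0.45 in mock and -3.82 and -3.73 in ABCG2 marrow, and 0 in GFP-negative and -0.13 in GFP-positive EZH2-Mt cells. Both ABCG2 arrays lay far below the other 5, a difference of -4.44 ± 0.16 (difference ± limma's standard error; adjusted p = 8.29e-06). In bulk RNA such as this, fewer cells of a type and less RNA per cell cannot be told apart. All 14 neutrophil markers measured were lower in ABCG2 marrow, with a mean over the list of -0.20 to 0.05 on the mock arrays and -3.97 and -5.56 on the ABCG2 arrays. Of 11 monocyte and macrophage markers 10 were lower, with a mean of 0.77 to 0.97 on mock and -2.62 and -2.50 on ABCG2 arrays. Conversely 7 of 10 B lineage markers were higher and the others not called, the mean being -1.20 to -0.54 on mock and 1.90 and 2.22 on ABCG2 arrays. The part of these marker shifts in the carriers' results was not tested.

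The other marker lists were smaller. All 4 megakaryocyte and platelet markers were lower. Of 7 stem and progenitor markers 4 were higher and 1 lower, of 4 plasma cell markers 2 were higher, of 4 T and NK markers 2 were higher and 1 lower, and of 8 erythroid markers 1 was higher and 2 lower. Only 1 of 10 markers of stroma, bone and vessel was measured, and it was higher.

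**Figure D2:**
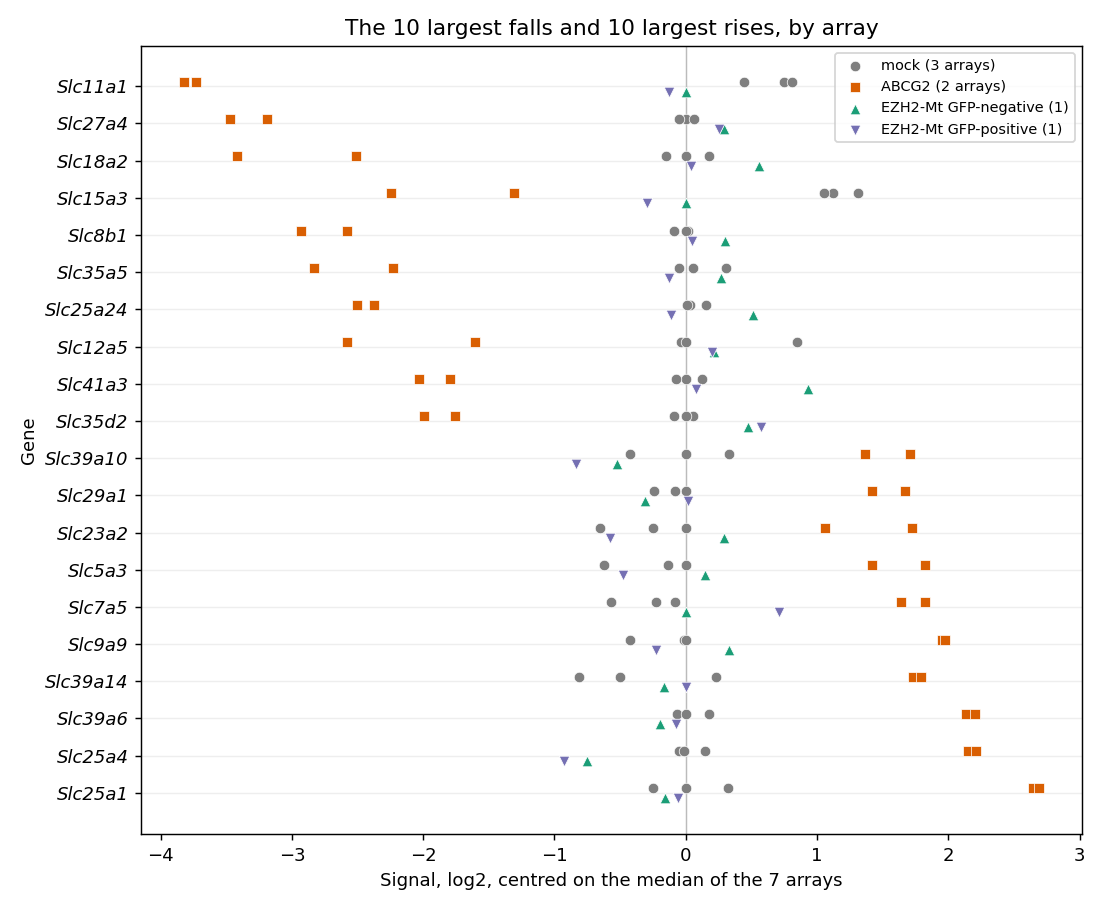
Signal in log2, centred on the median of the 7 arrays, of the 10 carrier genes with the largest falls and the 10 with the largest rises in ABCG2 marrow, with 1 marker per array. The ABCG2 squares lie outside the range of the other 5 arrays in each of the 20 genes, from -3.82 in Slc11a1 to 2.69 in Slc25a1.

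Promoters of members that moved in opposite directions are shown because they hold the same motif. RefSeq's promoter windows, 250 bases before to 50 after the start of transcription (assembly GRCm38.p6), matched 104 of the 133 genes with 137 windows. The palindromic E-box CACGTG stood in 23 of these 137 (16.8%), in 17.1% of the windows of genes called higher, 19.4% of those called lower and 15.4% of those not called. It stood in 10.5% of 8877 windows of measured genes and in 7.15% of all 32851. The Slc25 family had 29 windows from 24 matched genes, and the E-box stood in 7 of these windows (24.1%). Slc25a14 held it in more than a single window. Each line below gives the 250 bases before the start, on the gene's strand, with the E-box in capitals, for the citrate carrier Slc25a1 and the lactate carrier Slc16a1, which rose (differences of 2.64 and 1.21), and for the magnesium transporter Slc41a3 and the Golgi carrier Slc35a5, which fell (-1.93 and -2.63). The windows are chr16:17928220-17928469 (minus strand), chr3:104638414-104638663 (plus), chr6:90618996-90619245 (plus) and chr16:45158674-45158923 (minus), in that order.
Slc25a1: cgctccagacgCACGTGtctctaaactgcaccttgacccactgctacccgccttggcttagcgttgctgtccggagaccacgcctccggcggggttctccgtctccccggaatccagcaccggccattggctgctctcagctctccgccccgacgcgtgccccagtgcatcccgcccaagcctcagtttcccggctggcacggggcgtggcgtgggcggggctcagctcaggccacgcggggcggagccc
Slc16a1: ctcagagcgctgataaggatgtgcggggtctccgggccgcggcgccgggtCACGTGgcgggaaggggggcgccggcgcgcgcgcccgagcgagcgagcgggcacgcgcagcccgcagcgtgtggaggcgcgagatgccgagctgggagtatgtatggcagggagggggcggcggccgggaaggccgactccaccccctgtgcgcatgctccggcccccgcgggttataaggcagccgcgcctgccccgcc
Slc41a3: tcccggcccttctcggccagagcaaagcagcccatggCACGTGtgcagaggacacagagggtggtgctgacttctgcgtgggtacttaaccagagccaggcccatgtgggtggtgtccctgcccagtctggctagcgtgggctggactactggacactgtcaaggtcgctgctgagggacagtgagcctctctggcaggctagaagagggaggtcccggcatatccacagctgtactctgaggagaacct
Slc35a5: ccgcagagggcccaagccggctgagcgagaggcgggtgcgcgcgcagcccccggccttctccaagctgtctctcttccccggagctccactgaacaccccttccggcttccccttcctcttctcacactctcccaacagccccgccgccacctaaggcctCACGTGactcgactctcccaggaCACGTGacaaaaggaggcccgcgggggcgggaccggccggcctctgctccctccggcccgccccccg
The matches began at -239, -200 and -213 bases from the start in Slc25a1, Slc16a1 and Slc41a3, and at -90 and -67 in Slc35a5. A match is a run of letters, not a shown binding site. Other motifs were searched on both strands in the same windows. The Ets core CCGGAAG stood in 21.9% of the members' windows and 20.3% of those of measured genes, the metal response core TGCGCNC in 26.3% and 27.5%, the PU.1 core GAGGAAG in 8.03% and 13.7%, and the GATA core AGATAA in 5.11% and 6.13%. NRF1's GCGCATGCG stood in 1.46% and 4.15%, TGATGNAA of the amino acid response in 2.19% and 2.16%, and TTGCGCAA of C/EBP in 0 of 137 windows and 0.327%.

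Of the 5 carriers of iron, copper, magnesium and heme, Slc11a1 included, 3 fell (26.2% of all genes) and the others did not pass. Slc41a3, of the family of magnesium transporters, had 0.12, 0 and -0.08 in mock and -2.04 and -1.79 in ABCG2 marrow, with 0.93 in GFP-negative and 0.08 in GFP-positive EZH2-Mt cells. The difference was -1.93 ± 0.14 (adjusted p = 9.04e-05), and no mock array came near the ABCG2 values. Slc48a1, which passes heme out of lysosomes, had -0.05, 0.05 and -0.05 in mock and -0.59 and -0.79 in ABCG2 marrow and differed by -0.67 ± 0.13 (adjusted p = 0.0049). Its 2 probe sets gave differences of -1.001 and -0.34, and the call was lost under quantile normalization. The copper importer Slc31a1 and the iron importer Slc11a2 did not pass, at -0.26 ± 0.14 and 0.38 ± 0.17 (adjusted p = 0.153 and 0.0928). Slc11a2 is the iron-importing relative of Slc11a1, so these relatives in the same transporter family gave values of opposite sign, of which the fall alone passed.

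The fatty acid transporter Slc27a4, which also activates long-chain fatty acids with coenzyme A, showed the largest fall after Slc11a1. Its signal was 0, 0.06 and -0.05 in mock and -3.19 and -3.47 in ABCG2 marrow, and 0.29 in GFP-negative and 0.25 in GFP-positive EZH2-Mt cells. The groups did not overlap, and the difference was -3.33 ± 0.14 (adjusted p = 1.37e-05). Slc10a3, of the bile acid transporter family, was lower, at -1.02 ± 0.16 (adjusted p = 0.00184), and Slc10a7 of the same family did not pass, at 0.11 ± 0.14.

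Nucleoside, vitamin, choline and organic ion carriers gave 6 rises and 4 falls among 15 genes. These shares were 40.0% and 26.7%, beside 35.6% and 26.2% of all genes. Slc29a1, the equilibrative nucleoside transporter of the plasma membrane, had -0.09, 0 and -0.24 in mock and 1.42 and 1.67 in ABCG2 marrow, a difference of 1.65 ± 0.15 (adjusted p = 0.000196), and -0.31 in GFP-negative and 0.02 in GFP-positive EZH2-Mt cells. The ABCG2 arrays thus stood well above all others. Slc23a2 takes up ascorbate (vitamin C) with sodium and had 0, -0.25 and -0.66 in mock and 1.72 and 1.06 in ABCG2 marrow, a difference of 1.69 ± 0.26 (adjusted p = 0.00181). Slc22a5, the carnitine transporter, had -0.57, -0.62 and -0.82 in mock and 0.99 and 0.80 in ABCG2 marrow and differed by 1.56 ± 0.15 (adjusted p = 0.000223). The folate carrier Slc19a1 rose by 1.09 ± 0.22 and the urea transporter Slc14a1 of red cells by 1.15 ± 0.36 (adjusted p = 0.00572 and 0.0315). For Slc14a1, mock replicate 1 lay at -0.94 against 0.07 and 0.34 in the other mock arrays. The 2 probe sets of Slc14a1 gave 1.72, called higher, and 0.57, not called. Its call was lost without mock replicate 2, without either ABCG2 array and under quantile normalization. Slc29a4, a relative of Slc29a1 that carries organic cations, was higher by 0.50 ± 0.13 (adjusted p = 0.0161), a call that 4 of the alternatives lost.

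The falls in this group were led by Slc18a2, which loads monoamines such as serotonin and histamine into vesicles. Its values were 0.17, -0.15 and 0 in mock and -3.42 and -2.51 in ABCG2 marrow, with 0.56 in GFP-negative and 0.04 in GFP-positive EZH2-Mt cells. The difference was -2.97 ± 0.27 (adjusted p = 0.000204), and the ABCG2 arrays differed from each other by more than the mock arrays did. The choline transporter Slc44a1 had 0.88, 0.55 and 0.62 in mock and -0.96 and -0.60 in ABCG2 marrow, a difference of -1.47 ± 0.17 (adjusted p = 0.000597). Slc19a2 brings thiamine into the cell, and its difference was -1.06 ± 0.15 (adjusted p = 0.00112). Slc19a1 and Slc19a2, both vitamin carriers of family 19, thus moved in opposite directions, although the rise of Slc19a1 did not pass under quantile normalization (adjusted p = 0.1676). Slc17a9, the vesicular ATP transporter, was lower, at -0.45 ± 0.16 (adjusted p = 0.0464), a call that 8 of the alternatives lost.

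Amino acid and peptide carriers gave 6 rises and 4 falls among 19 genes (31.6% and 21.1%, beside 35.6% and 26.2% of all genes). The rises were in carriers of the plasma membrane that bring in large neutral, cationic or small neutral amino acids, and in the lysosomal Slc66a1. Slc7a5 is the light chain of the exchanger for leucine and other large neutral amino acids, and had -0.57, -0.08 and -0.23 in mock and 1.82 and 1.64 in ABCG2 marrow. Its difference was 2.02 ± 0.18 (adjusted p = 0.000186), with 0 in GFP-negative and 0.71 in GFP-positive EZH2-Mt cells. Both EZH2-Mt arrays thus lay above the mock arrays as well, yet below the ABCG2 arrays. Slc7a6, a light chain that exchanges cationic for neutral amino acids, had -0.30, -0.40 and 0.01 in mock and 1.38 and 1.28 in ABCG2 marrow, a difference of 1.56 ± 0.16 (adjusted p = 0.000357). Its 2 probe sets gave 1.34 and 1.79, so both point the same way. Slc7a1, the arginine and lysine transporter, had -0.40, -0.10 and 0.08 in mock and 1.11 and 0.82 in ABCG2 marrow, a difference of 1.10 ± 0.19 (adjusted p = 0.00252).

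The light chains Slc7a5 and Slc7a6 reach the cell surface bound to the heavy chain Slc3a2. For Slc3a2 the mock arrays had 0, 0.01 and 0.08, and the ABCG2 arrays 0.20 and -0.47, on either side of mock. Its difference of -0.16 ± 0.21 did not pass (adjusted p = 0.52). Slc3a2 rests on 1 probe set, and the ABCG2 arrays disagreed with each other more than the mock arrays did. The glutamine importers Slc1a5 and Slc38a1 rose: Slc1a5 had -0.53, -0.35 and -0.31 in mock and 0.77 and 0.91 in ABCG2 marrow, a difference of 1.24 ± 0.14 (adjusted p = 0.000475). For Slc38a1 the signal was -0.14, 0.18 and 0 in mock and 1.46 and 1.30 in ABCG2 marrow, a difference of 1.36 ± 0.15 (adjusted p = 0.000447). It was the sole call among 6 measured members of family 38, whose median difference was 0.25. Slc66a1, which exports cationic amino acids from lysosomes, differed by 0.78 ± 0.15 (adjusted p = 0.00462).

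Slc15a3, a proton-coupled peptide and histidine transporter of endosomes and lysosomes, had the largest fall of the amino acid group. It had 1.31, 1.12 and 1.05 in mock and -2.25 and -1.31 in ABCG2 marrow, and 0 in GFP-negative and -0.30 in GFP-positive EZH2-Mt cells. All 4 ABCG2 and EZH2-Mt arrays lay below the mock arrays, the ABCG2 arrays lowest. The ABCG2 difference was -2.94 ± 0.28 (adjusted p = 0.000225). Slc66a2 was lower, at -1.39 ± 0.15, the aromatic amino acid transporter Slc16a10 at -0.81 ± 0.15, and the taurine transporter Slc6a6 at -0.72 ± 0.14 (adjusted p = 0.000385, 0.00332 and 0.00463). The 2 probe sets of Slc16a10 gave -1.44, called lower, and -0.18, not called. Slc15a4, a relative of Slc15a3, did not pass, at -0.16 ± 0.16 (adjusted p = 0.433).

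Of 9 sugar carriers 2 rose and 1 fell (22.2% and 11.1%, beside 35.6% and 26.2% of all genes). Slc5a3, the sodium-coupled importer of myo-inositol, had -0.62, -0.14 and 0 in mock and 1.42 and 1.82 in ABCG2 marrow, a difference of 1.87 ± 0.23 (adjusted p = 0.000675). Slc50a1, a sugar transporter of the SWEET family, was higher by 0.55 ± 0.13 (adjusted p = 0.00929). Slc2a6, a glucose transporter family member of lysosomes, had 0.98, 0.54 and 0.45 in mock and -0.61 and -1.16 in ABCG2 marrow, a difference of -1.54 ± 0.23 (adjusted p = 0.00155), and both EZH2-Mt arrays also lay below mock, at -0.14 and 0. Slc2a1, a major glucose importer of blood cells, did not pass. It had 0, 0.16 and 0.18 in mock and 0.14 and -0.80 in ABCG2 marrow, so that ABCG2 replicate 1 lay among the mock arrays and replicate 2 below them, a difference of -0.44 ± 0.27 (adjusted p = 0.197).

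The monocarboxylate carriers split. Slc16a1 and Slc16a7 transport lactate and pyruvate with protons. Slc16a1 had -0.34, -0.19 and 0 in mock and 0.84 and 1.23 in ABCG2 marrow, a difference of 1.21 ± 0.18 (adjusted p = 0.00138). Slc16a7 had 0.10, 0 and -0.08 in mock and 1.76 and 1.35 in ABCG2 marrow, a difference of 1.55 ± 0.16 (adjusted p = 0.000385), while -1.26 in GFP-negative and -0.70 in GFP-positive EZH2-Mt cells, below every mock array. The ABCG2 and EZH2-Mt arrays thus lay on opposite sides of mock in Slc16a7. Slc16a6 of the same family fell. It had 0.14, -0.19 and 0 in mock and -0.94 and -2.22 in ABCG2 marrow, a difference of -1.56 ± 0.36 (adjusted p = 0.00869), and the ABCG2 arrays were 1.28 apart.

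Zinc carriers of family 39, which bring zinc into the cytosol, gave 4 rises and 1 fall among 9 genes. Those of family 30, which carry it out of the cytosol, gave 1 and 1 among 5. Over all genes 35.6% rose and 26.2% fell. Slc39a6 had -0.07, 0 and 0.17 in mock and 2.14 and 2.20 in ABCG2 marrow, a difference of 2.13 ± 0.14 (adjusted p = 5.36e-05). Slc39a10, its close relative at the plasma membrane, had -0.42, 0 and 0.33 in mock and 1.36 and 1.71 in ABCG2 marrow, a difference of 1.56 ± 0.24 (adjusted p = 0.00175). Slc39a14, which also carries iron, had 0.23, -0.81 and -0.50 in mock and 1.73 and 1.79 in ABCG2 marrow, a difference of 2.12 ± 0.30 (adjusted p = 0.00113). In all of these genes the ABCG2 arrays lay above the other 5, although the mock arrays of Slc39a14 were spread over 1.04. Slc39a8, which carries zinc and manganese, rose by 1.18 ± 0.13 (adjusted p = 0.000434). Quantile normalization left Slc39a6 past the threshold (adjusted p = 0.01505) and ended the calls of Slc39a8, Slc39a10 and Slc39a14 (adjusted p = 0.07822, 0.1764 and 0.08928).

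The fall in family 39 was Slc39a11, at -1.02 ± 0.13 (adjusted p = 0.000861). Slc30a1 is the zinc exporter of the plasma membrane, a gene known to be induced by zinc. It had 1.92, 1.29 and 0.53 in mock and -0.04 and 0 in ABCG2 marrow, a difference of -1.27 ± 0.37 (adjusted p = 0.0231), and -0.46 in GFP-negative and -0.37 in GFP-positive EZH2-Mt cells. All mock arrays lay above all 4 ABCG2 and EZH2-Mt arrays, yet the mock arrays were themselves spread over 1.38. The ABCG2 call was lost without mock replicate 2 and without either ABCG2 array. Slc30a9 was higher by 0.46 ± 0.14 (adjusted p = 0.0311), a call that 6 of the alternatives lost.

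Ion, proton, phosphate and anion exchangers gave 3 rises and 5 falls among 10 genes, where 35.6% of all genes rose and 26.2% fell. Slc8b1 is the sodium and calcium exchanger of the inner mitochondrial membrane, through which calcium leaves the matrix. It had 0.02, 0 and -0.09 in mock and -2.58 and -2.93 in ABCG2 marrow, with 0.30 in GFP-negative and 0.05 in GFP-positive EZH2-Mt cells, and a difference of -2.73 ± 0.15 (adjusted p = 3.34e-05). Mcu, the channel through which calcium enters the matrix, was lower as well, at -1.48 ± 0.16 (adjusted p = 0.000418). Slc12a5, a potassium chloride cotransporter known from neurons, had 0.84, -0.03 and 0 in mock and -2.58 and -1.61 in ABCG2 marrow, a difference of -2.36 ± 0.37 (adjusted p = 0.00187). Slc9a9, a sodium proton exchanger of endosomes, had -0.01, 0 and -0.42 in mock and 1.95 and 1.97 in ABCG2 marrow, a difference of 2.10 ± 0.17 (adjusted p = 0.000124). Its relative in the Golgi, Slc9a8, was lower, at -0.68 ± 0.16 (adjusted p = 0.0106), a call lost under quantile normalization and without ABCG2 replicate 2.

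The paired sodium phosphate importers of family 20 moved apart. Slc20a2 had -0.43, -0.45 and -0.55 in mock and 0.64 and 0.62 in ABCG2 marrow, a difference of 1.11 ± 0.12 (adjusted p = 0.000484). Slc20a1 had -0.13, 0.36 and 0.30 in mock and -0.48 and -0.67 in ABCG2 marrow, a difference of -0.75 ± 0.19 (adjusted p = 0.0123). Its 2 probe sets gave -1.33 and -0.17, and its call was lost under quantile normalization, with the replicate number in the model and without ABCG2 replicate 2. The chloride bicarbonate exchanger Slc4a2 was lower, at -0.66 ± 0.21 and Slc26a11, an anion exchanger, higher by 0.46 ± 0.16 (adjusted p = 0.0299 and 0.0444), calls that 5 and 8 of the alternatives lost.

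Carriers of the Golgi and endoplasmic reticulum, most of which bring nucleotide sugars to the enzymes that build glycans, gave 6 rises and 7 falls among 21 genes. These shares were 28.6% and 33.3%, beside 35.6% and 26.2% of all genes. All 7 falls and 1 of the 6 rises were past 2-fold, where 14.3% of all genes fell and 16.5% rose past that limit. Slc35a5 had 0.31, -0.05 and 0.05 in mock and -2.83 and -2.23 in ABCG2 marrow, a difference of -2.63 ± 0.21 (adjusted p = 0.000125), and its 3 probe sets ranged from -3.39 to -1.74. Slc35d2, a UDP-sugar transporter, had 0.06, 0 and -0.09 in mock and -1.99 and -1.76 in ABCG2 marrow, a difference of -1.86 ± 0.14 (adjusted p = 9.07e-05). Slc35c1 is the GDP-fucose transporter, on which the selectin ligands of leukocytes depend, and had -0.13, 0.05 and 0.08 in mock and -1.38 and -1.23 in ABCG2 marrow, a difference of -1.30 ± 0.14 (adjusted p = 0.00038). The related Slc35c2 had -0.09, 0 and 0.01 in mock and -1.59 and -1.62 in ABCG2 marrow, a difference of -1.58 ± 0.12 (adjusted p = 0.000106). In these genes both ABCG2 arrays lay below the other 5.

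Slc35a3, a transporter of UDP-N-acetylglucosamine, was lower, at -1.29 ± 0.15 (adjusted p = 0.00052), Slc35f6 at -1.43 ± 0.27 and Slc35e1 at -1.06 ± 0.23 (adjusted p = 0.00411 and 0.00693). The rises were smaller. Slc35e2 had 0, -0.29 and -0.34 in mock and 1.43 and 0.59 in ABCG2 marrow, a difference of 1.22 ± 0.26 (adjusted p = 0.00664). Slc35e3, Slc35g1 and Slc35a4 followed at 0.93 ± 0.26, 0.88 ± 0.28 and 0.67 ± 0.14 (adjusted p = 0.0193, 0.03 and 0.00602). The call of Slc35g1 was lost under 5 of the alternatives, and that of Slc35e3 without ABCG2 replicate 2 and under quantile normalization. Slc33a1, which brings acetyl-CoA into the endoplasmic reticulum, was higher by 0.63 ± 0.22 (adjusted p = 0.041), a call that 7 of the alternatives lost. The CMP-sialic acid transporter Slc35a1 did not pass, at 0.36 ± 0.14 (adjusted p = 0.0656).

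Of the 29 Slc25 genes, 7 were higher, 6 lower and 16 not called, beside the 35.6% and 26.2% of all genes given above. Their median difference was 0.16, as over all 133 genes, and the median size was 0.39, against 0.67 over the 104 other carriers. Slc25a1 exports citrate from the matrix, from which cytosolic acetyl-CoA is made. It had -0.25, 0.33 and 0 in mock and 2.65 and 2.69 in ABCG2 marrow, with -0.16 in GFP-negative and -0.06 in GFP-positive EZH2-Mt cells. The ABCG2 arrays lay well above the rest, with a difference of 2.64 ± 0.19 (adjusted p = 7.64e-05), the largest rise of the 133 genes.

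Family members that exchange ADP for ATP are encoded by several genes. Slc25a4 had -0.05, 0.15 and -0.01 in mock and 2.15 and 2.21 in ABCG2 marrow, with -0.75 in GFP-negative and -0.93 in GFP-positive EZH2-Mt cells. Its difference was 2.15 ± 0.13 (adjusted p = 4.63e-05), its 3 probe sets gave 1.96 to 2.34, and the EZH2-Mt arrays lay on the other side of mock. Slc25a5, the form of proliferating cells, had -0.03, 0.11 and -0.07 in mock and 0.37 and 0.42 in ABCG2 marrow, a difference of 0.40 ± 0.13 (adjusted p = 0.0355). Its 8 probe sets ranged from -0.05 to 1.43, 2 of them called higher and 6 not called, and 10 of the alternatives lost the gene's call. The phosphate carrier Slc25a3 did not pass, at 0.26 ± 0.15 (adjusted p = 0.18).

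Slc25a15 exchanges ornithine for citrulline and had -0.59, -0.60 and 0 in mock and 0.77 and 0.91 in ABCG2 marrow, a difference of 1.24 ± 0.21 (adjusted p = 0.0028). The closely related ornithine carrier Slc25a2 had -0.10, 0.11 and 0 in mock and -0.80 and -1.04 in ABCG2 marrow, a difference of -0.93 ± 0.14 (adjusted p = 0.00182), in the opposite direction. Under quantile normalization neither passed (adjusted p = 0.08151 and 0.0551). Slc25a39, which takes glutathione into mitochondria, was higher by 0.73 ± 0.13 (adjusted p = 0.00366), with 3 of its 4 probe sets called higher and the other at -0.12. The smaller rises were in Slc25a45, at 0.44 ± 0.13, and in Slc25a17, a family member of peroxisomes, at 0.44 ± 0.15 (adjusted p = 0.0272 and 0.0441). Of the alternatives, 6 lost the call of Slc25a45 and 8 that of Slc25a17.

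Slc25a24 moves ATP-magnesium against phosphate under the control of calcium, and was the Slc25 gene with the largest fall. It had 0.15, 0.03 and 0.01 in mock and -2.37 and -2.50 in ABCG2 marrow, with 0.51 in GFP-negative and -0.11 in GFP-positive EZH2-Mt cells. The difference was -2.50 ± 0.13 (adjusted p = 2.7e-05), with -2.79 and -2.22 from its 2 probe sets. The oxoglutarate malate carrier Slc25a11 had 0, 0 and 0.02 in mock and -0.75 and -0.69 in ABCG2 marrow, a difference of -0.73 ± 0.12 (adjusted p = 0.0024). Slc25a44, a carrier of branched-chain amino acids, was lower, at -1.003 ± 0.26, Slc25a29, a carrier of basic amino acids, at -0.63 ± 0.12, and the pyrimidine nucleotide carrier Slc25a33 at -0.65 ± 0.16 (adjusted p = 0.0143, 0.00484 and 0.0121). The call of Slc25a44 was lost under quantile normalization and without ABCG2 replicate 2. Under quantile normalization 3 of the 29 genes were higher and 2 lower. Leaving out mock replicate 1, mock replicate 2 or ABCG2 replicate 2 left 4 higher in each case.

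**Figure D3:**
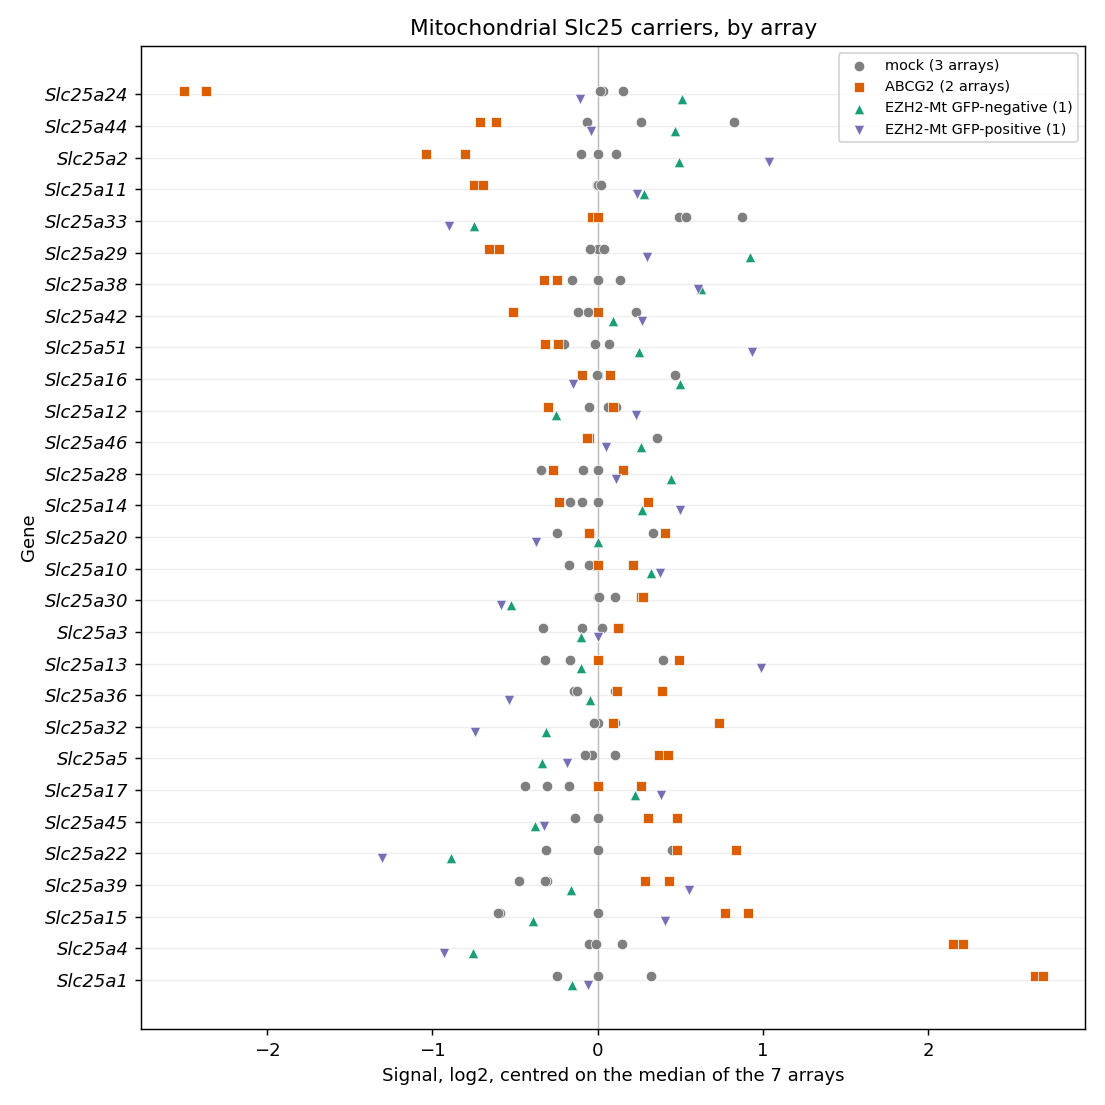
Signal in log2, centred on the median of the 7 arrays, of the 29 Slc25 genes, 1 marker per array, ordered by the difference between ABCG2 and mock. The ABCG2 squares lie near -2.50 for Slc25a24 at the top and near 2.15 and 2.65 for Slc25a4 and Slc25a1 at the bottom, and closer to the mock circles in the genes between.

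Carriers that have symbols of other kinds also moved in both directions. Of 16 mitochondrial ones measured, 5 were higher and 7 lower in ABCG2 marrow, beside 35.6% and 26.2% of all genes. Sfxn3 and Sfxn2, of the sideroflexins, and the outer membrane pore Vdac1 were higher by 1.23, 0.92 and 0.91, and Sfxn5, Mcu and Mpc1, a subunit of the mitochondrial pyruvate carrier, lower, at -3.33, -1.48 and -0.99. Of 30 carriers of other membranes 5 were higher and 14 lower, against the same shares of all genes. Spns2, which exports sphingosine 1-phosphate, Tusc3 and Spns1 led the rises at 1.77, 1.14 and 1.02, and Mfsd14b, Mfsd2b and Mfsd6 the falls at -2.61, -2.45 and -1.45. For Mfsd6 the ABCG2 arrays read -0.43 and -2.04, and without the second of them the difference was -0.64 and did not pass (adjusted p = 0.149). Under quantile normalization Sfxn2, Sfxn3, Vdac1, Tusc3, Mfsd2b and Mfsd6 did not pass. Of 13 listed partner proteins of carriers 7 were measured, among them Slc3a2 and Slc9a3r1. Of these 7, 3 were lower (26.2% of all genes) and the others did not pass. The 3 were Cd44 at -5.38, Nptn at -0.99 and Ostm1 at -0.96. The 3 genes named after a carrier without being one gave 1 call, Slc7a6os, named for its place on the opposite strand beside Slc7a6. It was higher by 1.29 ± 0.27 (adjusted p = 0.00624), with probe sets at 0.38 and 2.21.

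The sorted EZH2-Mt fractions have 1 array each, so their difference rests on a single pair of arrays without replicates and is given as a description, untested. GFP-positive cells were at least 2-fold (1 log2 unit) above GFP-negative cells in 2 carrier genes and below them in 1, where the shares over all genes were 1.77% and 1.34%. Slc17a3, a transporter of urate and organic anions, read 0 in GFP-negative and 1.80 in GFP-positive cells, with mock arrays at -1.39, -0.09 and 0.24. The mock arrays themselves differed by 1.63 in this gene. Slc25a13, the mitochondrial aspartate glutamate carrier, read -0.10 and 0.99, with mock arrays at -0.32, 0.40 and -0.17. Slc26a11 read 0.46 in GFP-negative and -0.82 in GFP-positive cells, with mock arrays at 0, -0.11 and -0.06, so that the fractions lay on either side of mock. Between arrays of 1 group, the same 2-fold limit was passed by 0 to 5 carrier genes among pairs of mock arrays and by 2 between the ABCG2 arrays.

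Markers of several cell types and the hybridisation controls differed between these fractions as well. The mean of 8 erythroid markers was 0.90 in GFP-negative and 2.10 in GFP-positive cells and -0.94 to 0.14 on the mock arrays. The 14 neutrophil markers had means of 0.27 and 0.90 in the fractions, in the same order, the 4 T and NK markers 1.27 and 0.09, and the 4 plasma cell markers -1.19 and 0.06. On the mock arrays these lists had means of -0.20 to 0.05, -1.93 to -0.27 and -0.19 to 0.10. The mean of 7 probe sets for the spiked-in hybridisation controls was 0.96 and 2.22, against -0.24 to 0.07 on mock and -0.65 and -0.74 on ABCG2 arrays. Without the BioB probe set, which read -3.24 and -3.15 on the ABCG2 arrays, the other 6 had means of 0.93 and 2.13 in the fractions, -0.20 to 0.08 on mock and -0.21 and -0.34 on ABCG2 arrays. Their part in the carriers' values was not tested. Under quantile normalization of all arrays, 10 carrier genes passed 2-fold between the fractions in place of 3. The share of all genes that did so was 9.3% in place of 3.10%. This scaling widens the values of the EZH2-Mt arrays by construction, so the larger counts cannot show how firm the difference between the fractions is.

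Against the mock mean, the GFP-negative array was at least 2-fold higher in 1 carrier gene and lower in 5 (2.46% and 2.12% of all genes), and the GFP-positive array higher in 6 and lower in 4 (4.33% and 3.03%). Both EZH2-Mt arrays lay above all mock arrays in 41 carrier genes and below them in 24, beside 27.4% and 20.6% of all genes. The fractions differ from mock in sorting as well as in transgene, which cannot be told apart. Both comparisons use the same mock arrays as the ABCG2 comparison, so values are given side by side. Slc2a9, a urate transporter, had 0, -0.28 and -0.80 in mock, and 0.83 in GFP-negative and 0.81 in GFP-positive EZH2-Mt cells, differences of 1.19 and 1.17 from the mock mean. Slc25a33 had 0.49, 0.87 and 0.54 in mock, and -0.75 in GFP-negative and -0.90 in GFP-positive EZH2-Mt cells, differences of -1.38 and -1.53. Slc30a1 differed by -1.70 and -1.62 and Slc15a3 by -1.16 and -1.46. In these falls both EZH2-Mt arrays lay below every mock array, and so did both ABCG2 arrays. The mean of the 11 monocyte and macrophage markers was lower there too, at -0.37 in GFP-negative and -0.14 in GFP-positive cells. On mock arrays it was 0.77 to 0.97, and its part in these falls was not tested. Within the list, Lyz2 lay above every mock array, at 0.33 and 1.04 against -0.24 to 0.10, and Vcam1 overlapped mock. The other markers of the list lay below every mock array in both fractions.

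Other genes passed the limit in a single fraction. Slc16a7 and Slc44a1 were lower in GFP-negative cells, at -1.27 and -1.08 from the mock mean. Slc9a8, Slc25a2, Slc25a13 and Slc17a3 were higher in GFP-positive cells, by 1.35, 1.03, 1.01 and 2.21, and Slc7a5 lay at the limit of 1 itself. Slc25a22, the mitochondrial glutamate carrier, had -0.31, 0 and 0.45 in mock, and -0.88 in GFP-negative and -1.30 in GFP-positive EZH2-Mt cells, differences of -0.93 and -1.35, which put the GFP-positive array past the limit and the other short of it. Slc25a22 did not pass in ABCG2 marrow, where it read 0.48 and 0.84 (difference 0.61 ± 0.25, adjusted p = 0.0678).

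**Figure D4:**
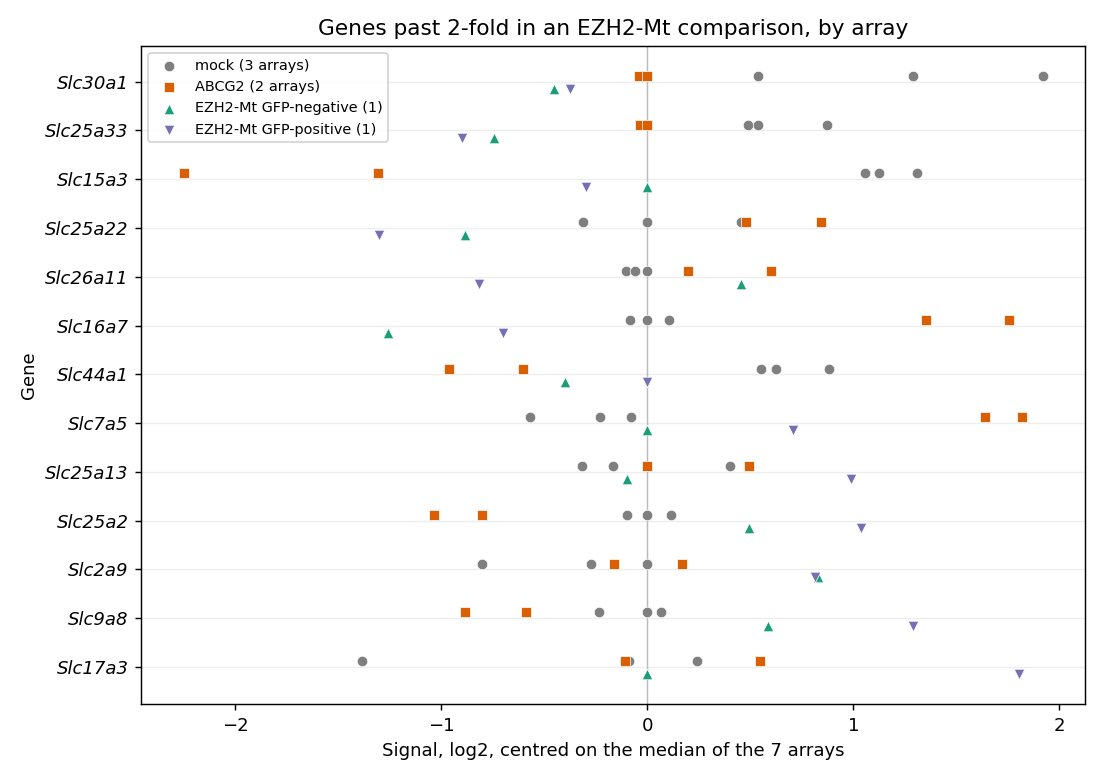
Signal in log2, centred on the median of the 7 arrays, of the 13 carrier genes that differed by 2-fold or more between the EZH2-Mt fractions or between a fraction and the mock mean, 1 marker per array. Both EZH2-Mt triangles lie left of every mock circle in Slc30a1, Slc25a33, Slc15a3, Slc25a22, Slc16a7 and Slc44a1, and Slc17a3 has the widest gap between the triangles, from 0 to 1.80.

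The genes with several probe sets show how far a gene's value depends on the probe sets averaged. Of 44 such genes, 12 had probe sets with differences of both signs between ABCG2 and mock, and 9 had probe sets at least 1 log2 unit apart. The median spread was 0.62 and the largest 3.07. The largest was in Slc35a2, the UDP-galactose transporter, the sole gene with probe sets called in opposite directions. Its 4 probe sets gave 2.12 and -0.96, both called, and 0.33 and 0.17, not called. The gene's mean was 0.41 ± 0.13 (adjusted p = 0.0299), so its call as higher describes a mean of probe sets that disagree. Slc7a6os, Slc14a1, Slc16a10, Slc20a1, Slc25a5, Slc25a39, Slc35a5 and Slc38a1 likewise had probe sets over 1 log2 unit apart. Those of Slc25a4, Slc25a24, Slc7a6 and Slc19a2 agreed in sign and call.

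**Figure D5:**
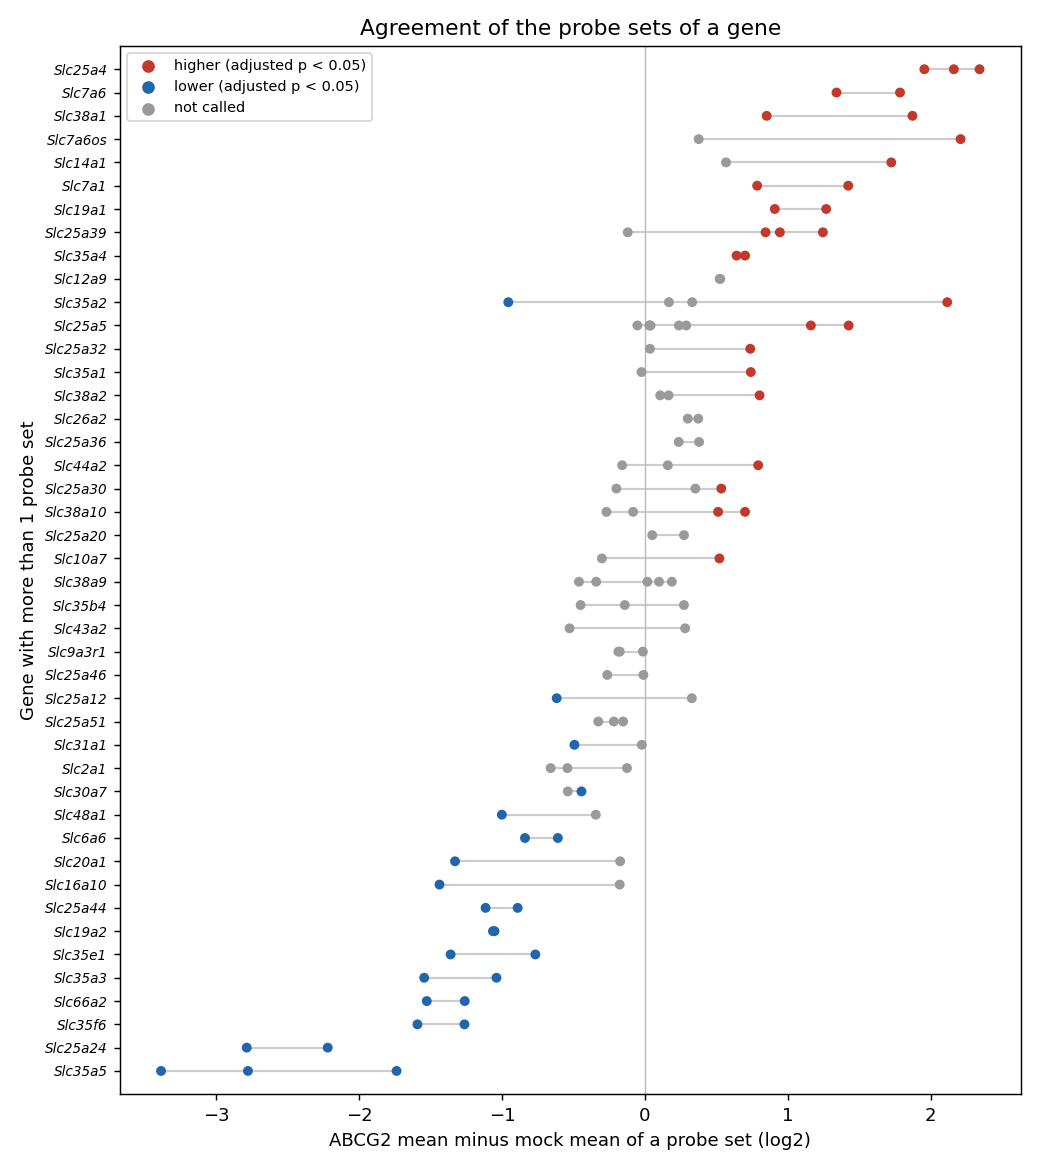
Difference between the ABCG2 and mock means in log2 for each probe set of the 44 carrier genes with more than 1, 1 point per probe set, with a line joining the probe sets of a gene. Slc35a2 has the longest line, from -0.96 to 2.12, and is the gene with both a red and a blue point.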

How the data were processed

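RNA of 7 bone marrow samples was measured on Affymetrix Mouse430_2 arrays, and the members and lists described here were chosen with earlier results of these data known. The authors' deposited values are log2 signals (the base was not stated), centred per probe set on the median of the 7 arrays. Per the file headers, the filter kept raw signals of 3.0 to 120534.25 with a Present or Marginal flag throughout (100% of samples). The submitters' processing notes list MAS5, and the scaling is not given in the sources used here. Of 16309 probe sets, 54 controls were set apart, and 14229 of the rest had 1 gene symbol, 483 several and 1543 none. A gene's value was the mean of its probe sets. The fit (limma 3.58.1, R 4.3.3, lmFit and eBayes, two-sided) compared 2 ABCG2 with 3 mock arrays over 8378 genes, and p-values were adjusted by Benjamini-Hochberg (threshold 0.05). Its code was checked on simulated data with few shifted genes and independent noise of the same spread in both groups. That check says nothing about the unequal spread of these arrays. For arrays, their number limits the precision. Genes named with their values are the largest rises and falls of each substrate group among those that passed, those past 2-fold in an EZH2-Mt comparison, and a few that did not pass. Alternatives were median centring, quantile normalization, the median or the most variable probe set, only the more variable genes, the replicate number as a block, array weights, robust eBayes and leaving out each array. For the EZH2-Mt fractions the first 3 were run.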

Additional observations from a re-analysis of the deposited data

How the results depend on the processing

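No carrier gene that passed changed direction under an alternative, and 38 of the 73 calls held under every alternative run for that gene (the restriction to more variable genes left some genes out). Quantile normalization changed most, ending 34 calls. It left 15 carrier genes higher in place of 38, and for Slc25 3 higher in place of 7 and 2 lower in place of 6, and it put 10 in place of 3 genes past 2-fold between the EZH2-Mt fractions. Quantile normalization gives the arrays the same spread. Before it, the SD over all genes was 0.30 to 0.39 on mock and 1.12 and 1.21 on ABCG2 arrays. Applied to the centred values, it narrows the ABCG2 arrays and widens the others by construction. Calls among all genes dropped as well, to 12.4% in place of 35.6% higher and 16.5% in place of 26.2% lower. The part of the equalised spread in the lost calls was not tested. Restricting the fit to genes above the median SD left 3 Slc25 genes higher, with fewer genes tested. Leaving out an array in turn gave 30 to 37 genes higher, 30 to 35 lower, 4 to 7 Slc25 genes higher and 5 to 6 lower. With the replicate number as a replicate block, 31 genes were higher and 33 lower, among them 5 and 6 of Slc25. Only mock has a replicate 3, so the block gives the same differences as leaving out mock replicate 3. Both were counted as alternatives, although they are not independent. The numbers share no known mouse or day, so the block is a formal check. Deviations of same-numbered arrays from their group means correlated at 0.0667 and -0.0605. With 2 ABCG2 arrays these deviations mirror each other, so the correlations cannot show whether the numbers pair arrays. The number of arrays limits every test, and the detection filter limits the genes to those with signal on all arrays.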
